A study of Mus musculus with 14 samples.

Results

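CD11b+ cells from the contralateral (CL) hemisphere, the non-lesion side of the brain, were compared between *Nhe1* cKO and Ctrl mice at 3 days after traumatic brain injury (TBI), which was produced by controlled cortical impact. The comparison holds the 7 CL libraries among the 14 libraries of the series, chosen by the hemisphere and genotype in their labels: 3 from cKO mice (788, 791 and 3592) and 4 from Ctrl mice (3541, 3545, 3546 and 3551). It covers all genes, and the other 7 libraries came from the ipsilateral (IL), lesioned hemisphere, with 6 mice giving a library for each side. All mice were C57BL/6, 8 to 12 weeks old and, per the study, male, and all received tamoxifen and TBI.

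Ctrl mice were Cx3cr1-CreER+/- and cKO mice were Cx3cr1-CreER+/-;Nhe1flox/flox, so both genotypes carried the inducible Cre driven by *Cx3cr1*, a gene expressed in microglia and in other mononuclear phagocytes. Ctrl mice carried no floxed *Nhe1* allele. The loss of *Nhe1* therefore cannot be told apart from any other difference between the mouse lines that produced each genotype. CD11b beads capture microglia together with any other myeloid cells of the hemisphere, and each library is a bulk sample of 1 mouse.

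NHE1 is a Na+/H+ exchanger of the plasma membrane that extrudes protons in exchange for sodium ions and so holds the cytosolic pH of active cells. In microglia it offsets the acid that the NADPH oxidase produces during a respiratory burst. Microglia are the resident macrophages of the brain. They survey the tissue with *P2ry12* and other purinergic receptors, carry Fc and complement receptors, and switch on lysosomal, lipid and cytokine genes after injury.

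Values are deposited CPM, the reads of a gene for each 1000000 reads of its library, and in the text they follow the order Ctrl 3541, 3545, 3546 and 3551, then cKO 788, 791 and 3592. Inferred depth was 16.1 to 41.6 M reads per CL library. Spearman's rank correlation over all genes tested was 0.959 to 0.986 for the 9 pairs of libraries of the same genotype and 0.960 to 0.976 for the 12 pairs across genotypes. On the first principal component, 38.6% of the variance, the loadings of Ctrl 3541 and Ctrl 3545 (0.637 and 0.524) stood apart from those of the other 5 libraries. Those of Ctrl 3546 and Ctrl 3551 were -0.173 and -0.0748 and those of cKO were -0.362 to -0.253, so every cKO library also lay below every Ctrl library. The 81 called genes described here under the rule for named genes or in the closing observations (*Rpl34*, *Eif3j1* and *Morf4l1* are not among them) were therefore also tested without Ctrl 3541 and Ctrl 3545: 44 remained called, 36 did not, and 1 (*Gm26740*) could not be tested. The summed level of 10 microglial markers (*P2ry12*, *Tmem119* and others) was 37301 to 41780 CPM in Ctrl and 35270 to 38441 CPM in cKO, so the labelled cell type was present in all 7 libraries.

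Across the transcriptome, 145 of 16570 genes tested were called, or 0.875%, at a limma adjusted p of at most 0.05 and a fold change of at least 1.2. Of these, 77 rose in cKO (0.465% of genes tested) and 68 fell (0.41%). In bulk CD11b+ cells, fewer cells that express a gene and less of its RNA per cell cannot be told apart. For scale, 9.81% of all genes had an unadjusted p under 0.05 and 9.24% had genotypes that did not overlap. The genes that rose had a median log2 change of 1.51 in size and those that fell 1.55. The genes that rose were often of low level: in 39 of 77 the higher genotype mean was under 10 CPM, against 14 of the 68 that fell. With all 14 libraries in 1 fit and the mouse as a block, 290 genes were called, 135 of the 145 among them. Without Ctrl 3541 and Ctrl 3545, 79 were called, 63 of them among the 143 of the 145 that could still be tested. The count was 84 without Ctrl 3545 alone, 77 without cKO 788 and 70 without cKO 791.

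**Figure D1:**
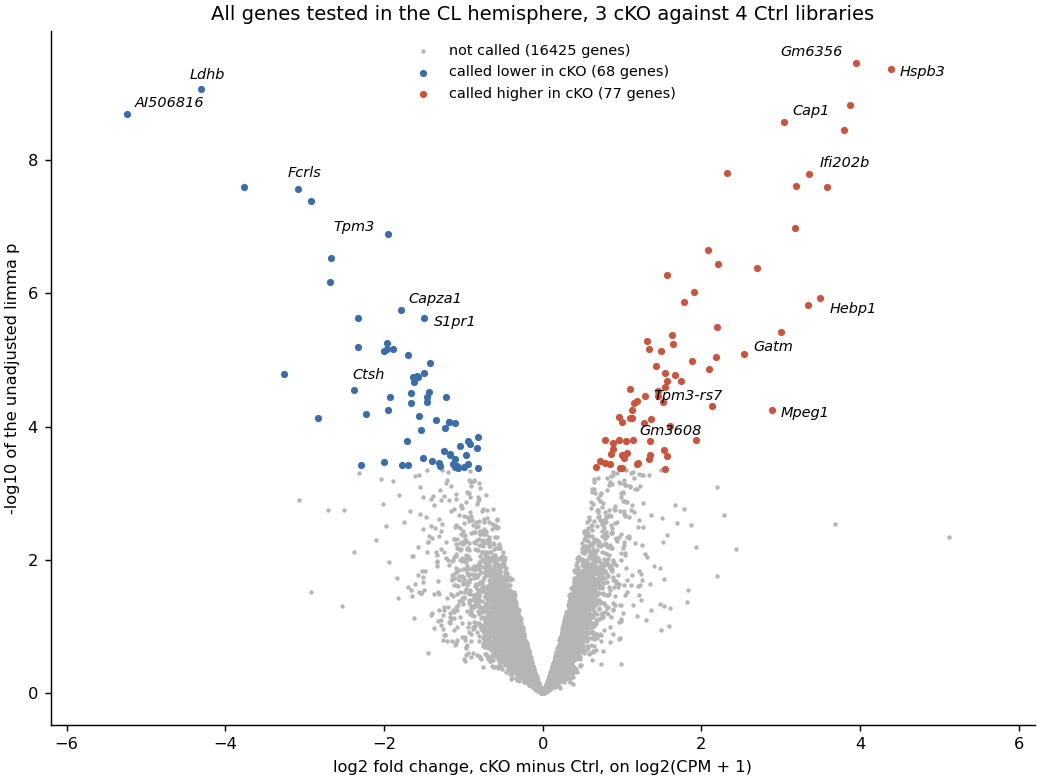
Each point is 1 of 16570 genes tested in the CL hemisphere, with the log2 fold change of cKO minus Ctrl on the log2(CPM + 1) scale on the x axis and -log10 of the unadjusted limma p on the y axis. The 77 genes called higher in cKO are red, the 68 called lower are blue, and *Ldhb* and AI506816 lie above the other genes called lower.

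Among 33 genes of pH regulation tested, *Slc9a9* fell and none rose, 3.03% called against 0.875% of all genes tested. *Slc9a9* encodes NHE9, a Na+/H+ exchanger of endosomes, and was at 159, 187, 203 and 183 CPM in Ctrl against 103, 105 and 104 CPM in cKO (log2 change -0.81, SE 0.14, limma adjusted p = 0.0247). The genotypes did not overlap, but the call was lost without Ctrl 3545 or any of the cKO libraries (adjusted p 0.0705 to 0.149), and without the 2 Ctrl libraries that stood apart (0.0610). *Chp2*, a calcineurin-like partner of NHE1, had means of 3.67 and 0.657 CPM and did not pass (adjusted p = 0.0912), nor did *Car2*, a cytosolic carbonic anhydrase (16.3 and 7.51 CPM, adjusted p = 0.177). The median log2 change of the list was -0.08, beside -0.05 over all genes tested. None of 8 NADPH oxidase genes tested passed, the smallest adjusted p being 0.527, and with 0.875% of all genes called 0 of 8 is near the background.

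*Ldhb* and *Fcrls* fell from high levels. *Ldhb*, the H subunit of lactate dehydrogenase, was at 756, 790, 564 and 598 CPM in Ctrl and at 31.6, 28.7 and 39.9 CPM in cKO (log2 change -4.31, SE 0.22, limma adjusted p = 4.8e-06). It was the only called gene of 27 tested for glycolysis and lactate transport (3.70%, against 0.875% of all genes), a list with a median log2 change of -0.12 beside -0.05 over all genes. *Fcrls*, an Fc receptor-like scavenger receptor known as a microglial signature gene, was at 3506, 3904, 2853 and 3596 CPM in Ctrl and at 441, 408 and 377 CPM in cKO (-3.08, SE 0.22, adjusted p = 3.48e-05). Its relative *Fcrl1*, best known from B cells, was at 31.9, 36.4, 50.1 and 34.8 CPM against 1.61, 1.09 and 3.37 CPM (-3.76, SE 0.27, adjusted p = 3.48e-05). These libraries did not come near each other: the lowest Ctrl value of each gene was over 6 times its highest cKO value. AI506816, a processed transcript, was at 90.3, 68.5, 45.6 and 112 CPM in Ctrl and close to 1 CPM in each cKO library (-5.23, SE 0.29, adjusted p = 6.74e-06). The calls on these 4 genes held whichever library was left out.

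*S1pr1*, *Ctsh* and *Usf1* also fell. *S1pr1*, a G protein-coupled receptor for sphingosine-1-phosphate that steers leukocyte traffic, was at 124, 155, 147 and 128 CPM in Ctrl and at 43.3, 54.1 and 49.3 CPM in cKO (log2 change -1.49, SE 0.17, limma adjusted p = 0.00135). It was the only called gene of 12 tested for sphingosine-1-phosphate signalling (8.33%, against 0.875% of all genes). *S1pr2* was at 20.1 and 10.9 CPM on average and did not pass (adjusted p = 0.226). *Ctsh*, the lysosomal cysteine protease cathepsin H, was at 982, 853, 668 and 679 CPM against 226, 284 and 262 CPM (-1.62, SE 0.23, adjusted p = 0.00618). *Usf1*, a transcription factor that binds E-boxes, was at 47.5, 65.3, 70.9 and 61.9 CPM against 21, 18.6 and 28.1 CPM (-1.42, SE 0.19, adjusted p = 0.00404). The 3 calls, *S1pr1*, *Ctsh* and *Usf1*, held whichever library was left out and without the 2 Ctrl libraries that stood apart.

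*F11r*, which encodes the junctional adhesion molecule JAM-A, was at 649, 686, 648 and 569 CPM in Ctrl and at 306, 274 and 316 CPM in cKO (log2 change -1.10, SE 0.18, limma adjusted p = 0.0161). *Anxa3*, a calcium-dependent phospholipid-binding annexin, was at 558, 641, 507 and 546 CPM against 289, 322 and 206 CPM (-1.07, SE 0.21, adjusted p = 0.0483). Neither gene overlapped between genotypes, yet the call on *F11r* was lost without Ctrl 3545 or any cKO library (adjusted p 0.0517 to 0.128), and that on *Anxa3* without any library but Ctrl 3546 (0.0715 to 0.150). Without the 2 Ctrl libraries that stood apart, the adjusted p was 0.0604 for *F11r* and 0.225 for *Anxa3*. *Slamf1*, a costimulatory receptor of the SLAM family, had levels of 9.66 to 11.9 CPM in Ctrl and 0.658 to 2.68 CPM in cKO (-2.32, adjusted p = 0.00293, and 0.0619 without those 2 libraries). *Liph*, a membrane-bound lipase that yields lysophosphatidic acid, had levels of 23.8 to 54.5 CPM against 4.62 to 8.98 CPM (-2.33, adjusted p = 0.00135).

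Genes that rose included *Cap1*, *Mpeg1* and *Gatm*. *Cap1*, the cyclase-associated protein that recycles actin monomers, was at 85.7, 86.0, 76.8 and 76.9 CPM in Ctrl and at 641, 765 and 634 CPM in cKO (log2 change 3.04, SE 0.17, limma adjusted p = 7.37e-06). *Mpeg1*, the macrophage pore-forming protein perforin-2, was at 73.0, 353, 97.9 and 183 CPM against 799, 1472 and 1132 CPM (2.89, SE 0.45, adjusted p = 0.012). *Gatm*, the enzyme of the first step of creatine synthesis, was at 372, 322, 247 and 295 CPM against 2315, 2431 and 1029 CPM (2.54, SE 0.32, adjusted p = 0.00324). The cKO libraries lay above all Ctrl libraries for each gene, while the Ctrl libraries varied most for *Mpeg1*, whose call was lost without cKO 791 (adjusted p = 0.0720). *Cap1* overlaps *Ppt1* on the opposite strand, which had a log2 change of 0.15 and was not called.

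*Hebp1*, a heme-binding protein, was at 1.78, 7.75, 2.89 and 3.36 CPM in Ctrl and at 38.9, 67.0 and 48.8 CPM in cKO (log2 change 3.50, SE 0.36, limma adjusted p = 0.000811). *Gnb4*, a beta subunit of heterotrimeric G proteins, was at 3.10, 2.63, 1.27 and 1.12 CPM against 18.6, 29.4 and 44.7 CPM (3.35, SE 0.36, adjusted p = 0.000951). *Qpct*, glutaminyl cyclase, which forms the N-terminal pyroglutamate of chemokines and other peptides, was at 16.3, 16.4, 7.77 and 14.3 CPM against 183, 77.3 and 104 CPM (3.01, SE 0.35, adjusted p = 0.002). All 3 rose in every cKO library relative to every Ctrl library. *Spry1*, an inhibitor of receptor tyrosine kinase signalling, was at 73.9, 84, 103 and 95.2 CPM against 235, 226 and 407 CPM (1.64, SE 0.20, adjusted p = 0.00273). *Susd4*, a complement regulator with sushi domains, was under 1 CPM in each Ctrl library and at 7.08, 4.59 and 6.82 CPM in cKO (2.20, SE 0.25, adjusted p = 0.00175). The calls on these 5 genes held whichever library was left out.

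**Figure D2:**
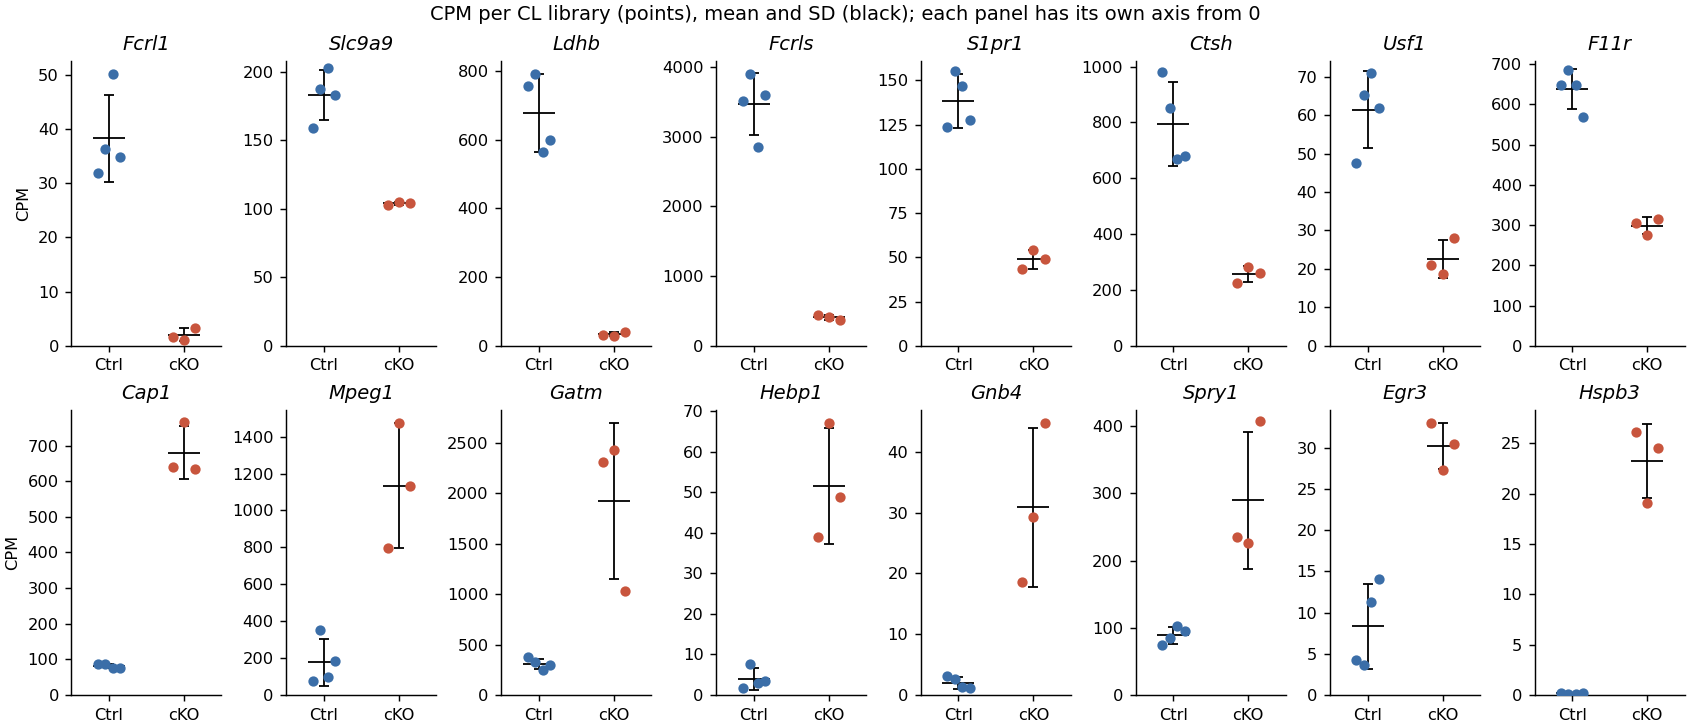
CPM of 16 genes in each CL library (points; Ctrl blue, n = 4, and cKO red, n = 3), with the mean and SD in black and a separate y axis from 0 in each panel. The 8 genes of the top row fell in cKO and the 8 of the bottom row rose, with no overlap between the genotypes in any panel; *Slc9a9* was at 159 to 203 CPM in Ctrl and 103 to 105 CPM in cKO.

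Of 19 heat shock genes tested, 17 had a negative log2 change (median -0.65, beside -0.05 over all genes tested), 4 lay lower in cKO and 1 higher without overlap (9.24% of all genes did not overlap), and 1 was called (5.26%, against 0.875% of all genes). *Hspb3*, a small heat shock protein known from muscle, was at 0.192, 0.1, 0.106 and 0.187 CPM in Ctrl and at 26.1, 19.1 and 24.6 CPM in cKO (log2 change 4.39, SE 0.21, limma adjusted p = 3.52e-06), and was the called gene. *Hspa1b*, an inducible HSP70, was at 1765, 3149, 1455 and 1000 CPM in Ctrl and at 466, 166 and 505 CPM in cKO, and just missed the threshold (log2 change -2.32, SE 0.47, adjusted p = 0.0532). *Hspa1a*, its neighbour and near copy, was at 2080, 2960, 1527 and 1022 CPM against 581, 316 and 690 CPM (-1.82, adjusted p = 0.0827). Ctrl 3545, a library that stood apart, had the highest value of each HSP70 gene.

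The immediate early genes, which respond within minutes to receptor signalling, mostly had positive log2 changes. These were positive in 24 of 25 tested, with a median of 0.39 beside -0.05 over all genes. In 9 of the 25 the genotypes did not overlap, against 9.24% of all genes, and *Egr3* and *Dusp2* rose, 8.0% of the list against 0.875% of all genes. *Egr3*, a zinc finger transcription factor, was at 4.21, 3.66, 11.3 and 14.1 CPM in Ctrl and at 33.0, 27.3 and 30.4 CPM in cKO (log2 change 1.93, SE 0.34, limma adjusted p = 0.0264). *Dusp2*, a nuclear phosphatase of MAP kinases, was at 77.7, 45.6, 72.9 and 80.0 CPM against 138, 130 and 141 CPM (1.0, SE 0.19, adjusted p = 0.0382). *Egr2* was at 185 and 376 CPM on average and did not pass (1.11, adjusted p = 0.114). The *Egr3* call was lost without Ctrl 3545 or any cKO library (adjusted p 0.0651 to 0.133) and the *Dusp2* call without any library but Ctrl 3541 (0.0552 to 0.191). Both remained called without Ctrl 3541 and Ctrl 3545 together (0.0353 and 0.0219).

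The HIN-200 family, interferon-inducible sensors and binders of DNA encoded in a cluster on chromosome 1, moved in both directions. Of 13 members tested, *Ifi202b* and *Ifi214* rose, *Mndal*, *Ifi211* and *Ifi213* fell, and 8 did not pass. The 5 called are 38.5% of the list, against 0.875% of all genes. *Ifi202b*, a member that lacks the pyrin domain, was listed at 0 in all 4 Ctrl libraries and at 6.53, 13.6 and 8.83 CPM in cKO (limma adjusted p = 2.95e-05). *Mndal* was at 8.41, 9.78, 9.67 and 6.45 CPM in Ctrl and at 0.309, 0.606 and 0.613 CPM in cKO (log2 change -2.67, SE 0.24, adjusted p = 0.000272). Both genes separated the genotypes in every library, in opposite directions. *Ifi202b*, at 0 in Ctrl, was tested only because all 3 cKO libraries passed the filter, so its separation adds no support. *Ifi211* (10.1 and 2.34 CPM, adjusted p = 0.0468) overlaps *Mndal* on the same strand, so their reads may be shared. *Ifi213* had means of 2.92 and 0.688 CPM (adjusted p = 0.0188) and *Ifi214* of 0.202 and 1.54 CPM (adjusted p = 0.0265). These last 3 calls were each lost without at least 4 of the single libraries and without the 2 Ctrl libraries that stood apart (adjusted p 0.132, 0.0943 and 0.248 for *Ifi213*, *Ifi214* and *Ifi211*). *Ifi204* (28.8 and 6.49 CPM) did not pass at 0.0606, nor did *Ifi203* (6.54 and 2.91 CPM, adjusted p = 0.180), a near copy of *Mndal*. The summed level of the family was 130 to 162 CPM in Ctrl and 51.4 to 85.6 CPM in cKO. None of 44 type I interferon response genes was called, where 0.875% of all genes were, and their median log2 change was 0.07.

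Other called genes had levels at or near 0 in 1 genotype. *Sycp1*, a synaptonemal complex protein of meiotic cells, was listed at 0 in all Ctrl libraries and at 2.32, 1.75 and 3.52 CPM in cKO (limma adjusted p = 0.000907). *Gm26740*, an antisense gene, was at 4.54, 2.81, 8.22 and 7.65 CPM in Ctrl and listed at 0 in all cKO libraries (adjusted p = 0.000505). *Fmr1nb*, a gene known from testis, was at 24.2, 6.87, 6.67 and 15.4 CPM against 0, 1.06 and 0.116 CPM (adjusted p = 0.00528). *Hist1h2al*, a processed pseudogene of histone H2A, was at most at 0.385 CPM in Ctrl and at 15, 13.2 and 17.3 CPM in cKO (log2 change 3.88, adjusted p = 6.16e-06). Each of the 4 changed with no overlap between genotypes, and none of the calls depended on 1 library. A gene at 0 in 1 genotype can pass the filter only through its level in the other. The lack of overlap therefore adds no support to the calls on *Sycp1* and *Gm26740*, and little to that on *Hist1h2al*. The loci *Gm42047*, *Gm45546* and *5830417I10Rik* also fell, by 2.83, 2.37 and 2.23 on the log2 scale (adjusted p = 0.0148, 0.0077 and 0.0136), and each call was lost without cKO 791 (0.0503 to 0.0949), that on *Gm42047* also without Ctrl 3545 or cKO 788. Of the called genes, 2 were listed at 0 in every Ctrl library and 1 in every cKO library.

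Of 33 homeostatic microglia genes tested, *Fcrls* and *Crybb1* fell and none rose, 6.06% called against 0.875% of all genes, and the median log2 change was 0.08. *Crybb1*, a crystallin that serves as a marker of microglia, was at 195, 213, 158 and 176 CPM in Ctrl and at 87.0, 84 and 109 CPM in cKO (log2 change -0.99, SE 0.20, limma adjusted p = 0.0477), but the call was lost without any library except Ctrl 3546 (adjusted p 0.0609 to 0.264) and without Ctrl 3541 and Ctrl 3545 together (0.130). *Olfml3*, a secreted protein of microglia, had means of 3001 and 1399 CPM and did not pass (adjusted p = 0.112). None of 27 disease-associated microglia genes was called (median log2 change 0.25), which is near the share over all genes for a list of this size. *Spp1* (osteopontin) was at 1246, 152, 113 and 466 CPM in Ctrl and at 572, 1749 and 3133 CPM in cKO, so the genotypes overlapped (adjusted p = 0.346).

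None of 35 cytokine and chemokine genes was called (median log2 change 0.34), none of 28 antigen presentation genes (-0.01), none of 16 restorative markers (0.05), none of 15 gamma-secretase and APP genes (-0.11), none of 20 lipid and cholesterol genes (0.04) and none of 23 cell cycle genes (-0.26). With 0.875% of all genes called, 0 in lists of these sizes is near the background. Among 24 Fc receptors and complement genes, *Fcrls* and *Fcrl1* fell and none rose (8.33% called). The median of that list was -0.31, and its summed level was 23318 to 32402 CPM in Ctrl and 19821 to 21932 CPM in cKO. Of 45 genes of adhesion and IL-8 signalling, *Gnb4* alone was called (2.22%), while 36 had a negative log2 change (median -0.18). *Vcam1*, the endothelial and myeloid ligand of the VLA-4 integrin, was at 154, 106, 74.8 and 61.2 CPM in Ctrl and at 28.2, 39.4 and 28.1 CPM in cKO and missed the threshold (log2 change -1.54, SE 0.34, limma adjusted p = 0.0689). *Rnd1*, a small GTPase, had means of 2.80 and 0.862 CPM (adjusted p = 0.103), and *Napepld*, which makes N-acylethanolamines, of 3.08 and 1.55 CPM (adjusted p = 0.220). For these 3 genes, *Vcam1*, *Rnd1* and *Napepld*, every cKO library lay below every Ctrl library, as was so for 9.24% of all genes in either direction.

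**Figure D3:**
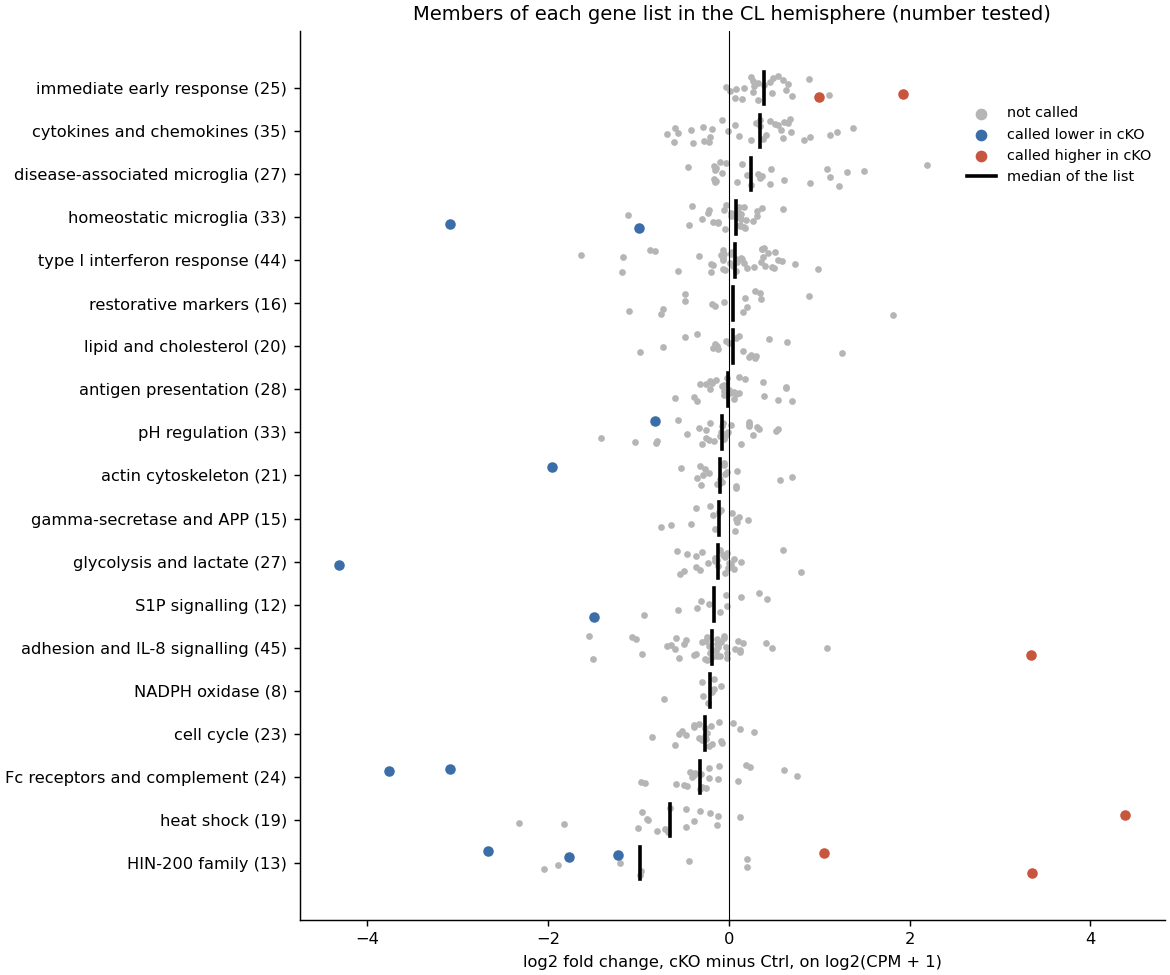
Log2 fold change of cKO minus Ctrl on the log2(CPM + 1) scale (x axis) for every tested member of each pathway gene list (rows, number tested in brackets); grey points were not called, red were called higher, blue called lower, and the black bar is the list's median. Medians of these lists lie between -0.98 for the HIN-200 family and 0.39 for the immediate early response, and every list but the HIN-200 family holds at most 2 called genes.

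Several called genes have a near-identical copy elsewhere in the genome, and reads can be assigned to either. For the following shares, a copy had to match at 95% identity or more over at least 300 bases and over most of the gene's longest transcript. Of the 144 called genes with an annotated transcript, 29 (20.1%) had such a copy, against 10.5% of 16539 genes tested. Copies within the chromosome 14 family described below count towards both shares. *Tpm3*, a tropomyosin that stabilizes actin filaments, and its retrocopy *Tpm3-rs7* moved in opposite directions, as did *Capza1*, the actin-capping protein subunit, and its pseudogene *Gm3608*. Matching 90-base stretches of coding sequence of each gene and its copy (GRCm38, GENCODE M21) are shown because they set how well a read can be placed, and capitals mark the bases at which the copies differ. *Tpm3* (chr3:90079769-90079858, plus strand) and *Tpm3-rs7* (chr14:113314713-113314802, plus strand) differ at 3 bases here and are 99.1% identical over 2108 bases. *Capza1* (chr3:104839899-104839988, minus strand) and *Gm3608* (chr1:105456202-105456291, plus strand) share all 90 bases and are 99.5% identical over 2859 bases. *Ldhb* (chr6:142490500-142490589, minus strand) and *Gm5514* (chr19:21938232-21938321, plus strand) differ at 5 bases and are 98.0% identical over 1002 bases.
Tpm3: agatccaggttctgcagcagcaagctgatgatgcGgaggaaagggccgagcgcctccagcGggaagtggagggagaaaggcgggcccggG
Tpm3-rs7: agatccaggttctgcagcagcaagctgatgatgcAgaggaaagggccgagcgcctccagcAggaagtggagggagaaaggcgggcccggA
Capza1: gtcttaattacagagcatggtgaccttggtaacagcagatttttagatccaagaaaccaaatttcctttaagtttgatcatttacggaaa
Gm3608: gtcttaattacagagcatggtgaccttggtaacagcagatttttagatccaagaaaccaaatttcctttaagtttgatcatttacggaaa
Ldhb: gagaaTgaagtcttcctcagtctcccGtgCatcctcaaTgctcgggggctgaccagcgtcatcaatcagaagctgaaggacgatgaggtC
Gm5514: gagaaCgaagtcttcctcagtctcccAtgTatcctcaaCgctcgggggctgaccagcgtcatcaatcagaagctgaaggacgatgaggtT

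*Tpm3* was at 554, 579, 531 and 555 CPM in Ctrl and at 150, 142 and 140 CPM in cKO (log2 change -1.95, SE 0.16, limma adjusted p = 0.000135). *Tpm3-rs7* was at 304, 300, 238 and 266 CPM against 684, 676 and 675 CPM (1.29, SE 0.19, adjusted p = 0.00869). The sum of the pair was 832 ± 48.0 CPM in Ctrl (SD, n = 4) and 822 ± 10.6 CPM in cKO (SD, n = 3), a difference within the spread between libraries (two-sided exact permutation p = 0.80; the smallest p that 35 assignments allow is 0.0571). The level of *Tpm3* alone is therefore uncertain, and *Tpm3* was the only called gene of 21 tested in the actin cytoskeleton list (4.76% called against 0.875% of all genes, median log2 change -0.09), which does not hold *Cap1* or *Capza1*. *Capza1* was at 363, 373, 309 and 294 CPM in Ctrl and at 91.3, 109 and 91.1 CPM in cKO (-1.78, SE 0.19, adjusted p = 0.0011). *Gm3608* was at 146, 146, 119 and 130 CPM against 280, 313 and 284 CPM (1.11, SE 0.18, adjusted p = 0.0148). The sum of this pair was 470 ± 50.7 and 390 ± 28.3 CPM, lower in cKO by 17.1% with no overlap (exact permutation p = 0.0571, the smallest possible). The calls on *Tpm3-rs7* and *Gm3608* were lost without cKO 788 or cKO 791 (adjusted p 0.0574 to 0.0982).

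*Ldhb* differed from these pairs, because its processed pseudogene *Gm5514* fell with it, from 162, 180, 122 and 150 CPM to 19.7, 16.1 and 22.7 CPM (log2 change -2.92, limma adjusted p = 4.8e-05). The sum of *Ldhb* and *Gm5514* was 830 ± 135 CPM in Ctrl (SD, n = 4) and 52.9 ± 9.04 CPM in cKO (SD, n = 3; two-sided exact permutation p = 0.0571, the smallest possible). *Capza1* and *Tpm3* were chosen for their copies moving apart; 11 further copies of genes named here were not called, with log2 changes of -0.55 to 1.35, nor was *Hist2h2aa1*, a copy of *Hist1h2al*, at 0.17. Sums with a copy were also taken for *Rpl34*, *Eif3j1* and *Morf4l1*, called genes that fell while their copies were not called, chosen after their values were seen. The sum of *Rpl34* and *Rpl34-ps1* was 32.0 ± 9.01 CPM in Ctrl and 27.7 ± 1.58 CPM in cKO (exact permutation p = 0.57). That of *Eif3j1* and *Eif3j2* was 89.95 ± 10.5 and 59.8 ± 6.06 CPM, without overlap (exact permutation p = 0.0571, the smallest possible), and that of *Morf4l1* and *Morf4l1-ps1* was 254 ± 31.4 and 192 ± 18.4 CPM (exact permutation p = 0.11).

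The ribosomal protein gene *Rpl29* and the mitochondrial gene *mt-Nd3* were not called themselves, while some of their copies were. *Rpl29* (chr9:106431177-106431266, plus strand) differs at 1 base from *Gm8210* (chr1:43189366-43189455, plus strand) in the stretch shown, and *mt-Nd3* (MT:9459-9548, plus strand) at 1 base from *Gm28438* (chr1:24613030-24613119, minus strand). The copies are 99.4% identical over 483 bases and 99.7% identical over 345 bases, and capitals again mark the differing base.
Rpl29: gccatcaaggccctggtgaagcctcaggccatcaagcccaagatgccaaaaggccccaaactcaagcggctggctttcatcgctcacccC
Gm8210: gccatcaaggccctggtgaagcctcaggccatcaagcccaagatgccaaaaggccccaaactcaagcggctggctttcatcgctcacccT
mt-Nd3: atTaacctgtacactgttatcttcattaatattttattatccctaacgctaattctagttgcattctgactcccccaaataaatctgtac
Gm28438: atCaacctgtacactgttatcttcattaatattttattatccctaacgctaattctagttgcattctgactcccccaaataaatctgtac

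*Gm8210* was below 0.001 CPM in every Ctrl library and at 8.14, 18 and 8.92 CPM in cKO (limma adjusted p = 3.48e-05). *Gm13841*, a further processed pseudogene of *Rpl29*, was at no more than 0.496 CPM in Ctrl and at 8.79, 14.5 and 6.81 CPM in cKO (log2 change 3.18, adjusted p = 0.000113). *Rpl29* itself was at 63.3, 59.7, 31.4 and 58.0 CPM in Ctrl and at 23.5, 0.965 and 20.2 CPM in cKO and did not pass (adjusted p = 0.242). The cKO library with the least *Rpl29*, 791, had the most of *Gm8210* and *Gm13841*. Another pair of copies was lower in cKO, as *Rpl29* was, without passing: *Gm14036* had means of 9.22 and 1.73 CPM (adjusted p = 0.0998) and *Gm6344* of 6.25 and 1.61 CPM (adjusted p = 0.114). Summed over 23 genes of the *Rpl29* family, the level was 70.2 ± 18.4 CPM in Ctrl (SD, n = 4) and 41.5 ± 6.12 CPM in cKO (SD, n = 3; two-sided exact permutation p = 0.11). *Gm28438*, a nuclear copy of *mt-Nd3*, was at 0.562, 1.34, 1.40 and 1.16 CPM against 19.2, 18.8 and 16.6 CPM (3.20, SE 0.23, adjusted p = 3.48e-05), and *mt-Nd3* was at 10.4, 11.8, 9.05 and 17.4 CPM against 4.52, 5.42 and 3.31 CPM (adjusted p = 0.0505). Their sum was 13.3 CPM in Ctrl and 22.6 CPM in cKO (exact permutation p = 0.0571, the smallest possible).

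**Figure D4:**
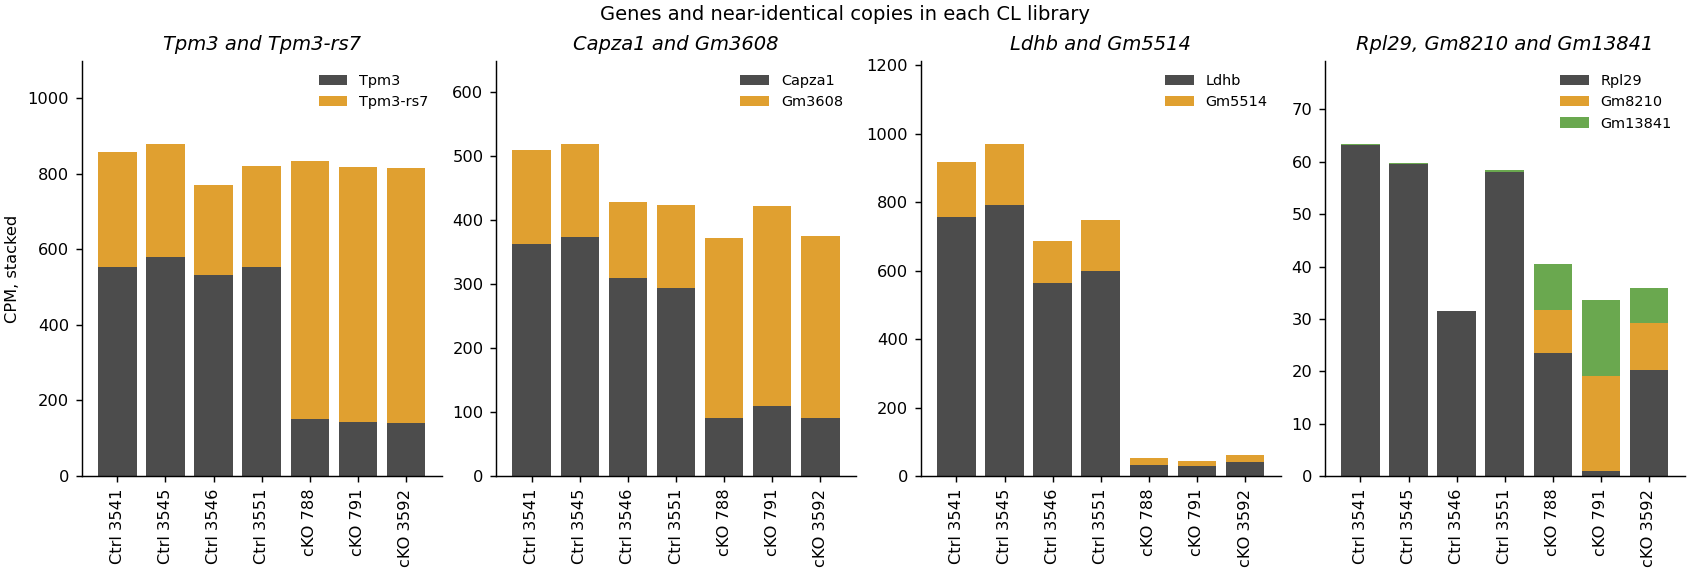
Stacked bars give the CPM of genes and their near-identical copies in each CL library, with 4 Ctrl libraries on the left and 3 cKO libraries on the right of each panel, and separate y axes from 0. The sum of *Tpm3* and *Tpm3-rs7* lies between 770 and 879 CPM in all 7 libraries while its split differs by genotype, whereas the sum of *Ldhb* and *Gm5514* is 686 to 970 CPM in Ctrl and 44.7 to 62.6 CPM in cKO.

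A family of 82 predicted genes on chromosome 14, between positions 3049285 and 19618889, held 13 called genes among 42 tested (31.0%, against 0.875% of all genes), of which 12 rose and *Gm3248* fell. The other members were too low to be tested. A member near 0 in Ctrl could pass the filter only through the cKO libraries, so it could be called only as a rise. *Gm6356* was listed at 0 in 3 Ctrl libraries and far below 1 read in the other, and was at 14.5, 15.9 and 13.3 CPM in cKO (limma adjusted p = 3.52e-06). *Gm3411* was at no more than 0.383 CPM in Ctrl and at 16, 16.3 and 11.4 CPM in cKO (log2 change 3.80, adjusted p = 8.45e-06). *Gm10251* was at 1.81, 2.63, 1.92 and 2.45 CPM against 7.43, 8.50 and 7.44 CPM (1.46, adjusted p = 0.00785), a call lost without cKO 788 or cKO 791 (0.0525 and 0.0699). The calls on *1700110I01Rik*, *Gm3095*, *Gm3248*, *Gm3373*, *Gm3453* and *Gm8050* were also lost without cKO 791, and that on *Gm3373* whichever library was left out. Without Ctrl 3541 and Ctrl 3545, 9 of the 13 calls were lost (adjusted p 0.0610 to 0.260), that on *Gm3248* among them. Other members had lower values in cKO without passing, so that 25 of 42 log2 changes were negative and the median was -0.24. The summed level of the family was 109 ± 51.0 CPM in Ctrl (SD, n = 4) and 120 ± 20.3 CPM in cKO (SD, n = 3), a difference smaller than the spread between Ctrl libraries (two-sided exact permutation p = 0.74). These genes are close copies of each other, and the level of any member is uncertain. Near them, *Dnase1l3*, a secreted DNase, rose from 0.168, 0.150, 0.318 and 0.373 CPM to 4.84, 4.48 and 3.60 CPM (2.08, SE 0.18, adjusted p = 0.000215).

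Called genes were spread unevenly over the chromosomes. They made up 2.76% of the genes tested on chromosome 3 (23 of 833), 2.72% on chromosome 14 (17 of 624) and 1.43% on chromosome 1 (15 of 1048), against 0.875% overall and 0.0793% on chromosome 11 (1 of 1261). The share on chromosome Y was 12.5%, from 1 of only 8 genes tested. In 7 runs, 3 or more called genes followed each other with at most 1 Mb between neighbours, and these runs held 31 of the 145. On chromosome 1, *Usf1*, *F11r* and *Slamf1* fell within 0.390 Mb, and the HIN-200 genes followed at 173519717 to 173982744. On chromosome 6, *Ldhb* fell while its neighbours *Abcc9* and *St8sia1*, the GD3 ganglioside synthase, rose, 3 of 5 genes tested in 0.474 Mb. On chromosome 3, *Sycp1* and *Syt6*, a synaptotagmin, rose and *Tspan2*, a tetraspanin, fell within 0.911 Mb, and *Spry1* rose with *Gm42922* and *Gm43820* around it. That last run spans only 0.009 Mb, and *Gm42922* overlaps *Spry1* on the opposite strand, so their reads may be shared. *Syt6* was at 3.77, 3.24, 3.18 and 8.91 CPM in Ctrl and at 22.8, 24.1 and 23.7 CPM in cKO (log2 change 2.19, SE 0.28, limma adjusted p = 0.00339). The calls on *St8sia1*, *Tspan2*, *Gm42922* and *Gm43820* were each lost without at least 5 of the single libraries, Ctrl 3545 and cKO 791 among them (0.0532 to 0.265), and without the 2 Ctrl libraries that stood apart (0.147 to 0.298). The call on *Syt6* was lost without those 2 libraries (0.0623).

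**Figure D5:**
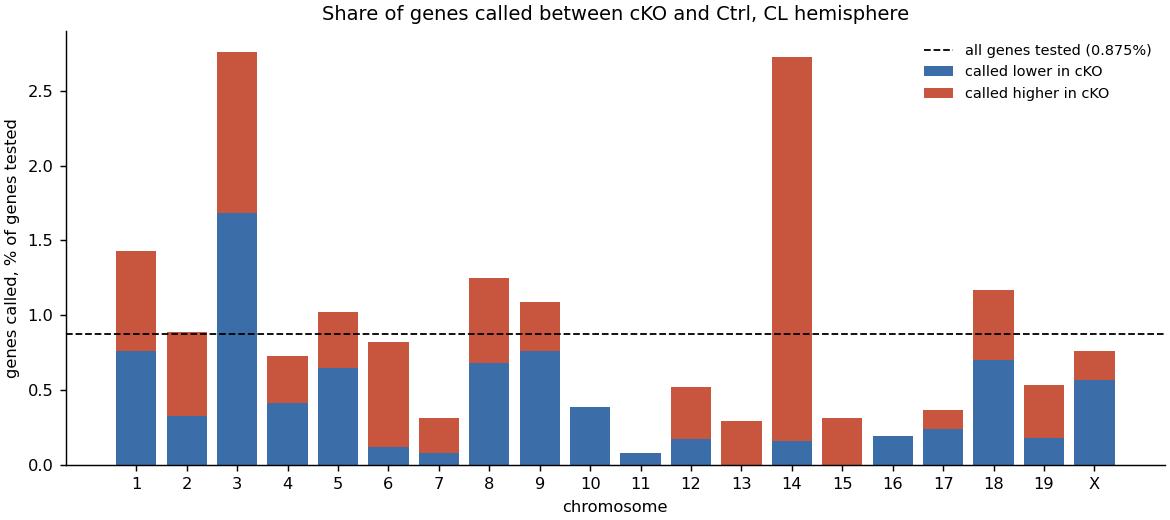
Stacked bars give the percentage of genes tested on each chromosome (x axis) that were called lower (blue) or higher (red) in cKO in the CL hemisphere, and the dashed line marks 0.875% over all genes. Chromosomes 3 and 14 reach 2.76% and 2.72% and stand highest of those drawn (chromosome Y, with 1 of 8 genes called, and the mitochondrial genome, with 0 of 15, are left out), and nearly all called genes of chromosome 14 (16 of 17) were higher.

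Of 86 markers of other cell types tested, 2 were called (2.33%, against 0.875% of all genes). *Mobp*, a myelin protein, fell from 18.4, 15.5, 11.9 and 8.34 CPM in Ctrl to 2.16, 3.71 and 4.61 CPM in cKO (log2 change -1.70, SE 0.33, limma adjusted p = 0.0464), and *Abcc9*, a potassium channel subunit of pericytes, rose from 1.13, 0.903, 0.6 and 0.871 CPM to 4.73, 5.64 and 3.60 CPM (1.57, SE 0.22, adjusted p = 0.00603). The call on *Mobp* was lost without any library but Ctrl 3551 (adjusted p 0.0583 to 0.216) and without Ctrl 3541 and Ctrl 3545 together (0.241). All 7 oligodendrocyte markers tested had a negative log2 change (median -0.98), and their summed level was 231 to 326 CPM in Ctrl and 178 to 221 CPM in cKO, without overlap. *Mobp* was the only one of the 7 called. *Tspan2*, which is not in that list and is a tetraspanin that oligodendrocytes express, fell from 4.30 to 1.36 CPM on average (adjusted p = 0.0382). No other pericyte marker of 6 was called, and the summed pericyte level overlapped (38.4 to 86.9 CPM in Ctrl, 46.8 to 65.3 CPM in cKO). The part of oligodendrocyte RNA in these calls was not tested.

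Neutrophil markers, 10 of 10 tested, were at a summed 8385, 2983, 4472 and 1381 CPM in Ctrl and at 1299, 1729 and 2337 CPM in cKO; *S100a9* (725 and 193 CPM on average) had an adjusted p of 0.441 by limma. Endothelial markers summed to 336, 335, 135 and 172 CPM in Ctrl and to 118, 110 and 194 CPM in cKO, highest in the 2 Ctrl libraries that stood apart, and *Vcam1* was highest in the same libraries. Border-associated macrophage markers summed to 483 to 1088 CPM against 290 to 750 CPM, and infiltrating monocyte markers to 314 to 902 CPM against 225 to 604 CPM. Summed T and NK cell markers were 11.8 to 22.3 CPM against 8.13 to 12.8 CPM, B cell markers 552 to 837 CPM against 659 to 758 CPM, and erythroid markers 36.8 to 132 CPM against 104 to 141 CPM. Neuron markers were 3.81 to 18.5 CPM against 3.77 to 5.23 CPM, astrocyte markers were 212 to 232 CPM against 185 to 219 CPM, and oligodendrocyte progenitor markers 8.47 to 11.9 CPM against 5.53 to 15.3 CPM. Among these cell types, the genotypes overlapped in every sum except that of oligodendrocytes. Of the single markers other than *Mobp* and *Abcc9*, none was called.

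The IL hemisphere shares 6 mice with these libraries. Of the genes that rose, 69 were tested there, of which 36 were called and 68 had the same sign. Of those that fell, 68 were tested, of which 31 were called and 67 had the same sign. *Ldhb* had an IL log2 change of -4.29, *Fcrls* of -2.99, *Cap1* of 3.00 and *Mpeg1* of 3.38, each called there as well. *S1pr1* had IL means of 159 and 104 CPM (-0.60, adjusted p = 0.182), *Anxa3* of 424 and 314 CPM (-0.43, 0.469) and *Mobp* of 11 and 7.89 CPM (-0.41, 0.733). A gene called on 1 side only is not thereby shown to differ between sides. The genotype by hemisphere interaction, which tests that difference, gave 0 called genes among 18476 tested by limma (0%), with 481 (2.6%) at an unadjusted p under 0.05. That fit took the libraries of a mouse as independent. For *S1pr1* the interaction was -0.88 (adjusted p close to 1), and -0.90 with the mouse as a block (SE 0.16, limma adjusted p = 0.124). *Susd4*, not called on the IL side (0.373 and 0.549 CPM), had an interaction of 1.95 on the log2 scale (adjusted p = 0.121). With the block it was 1.89 (adjusted p = 0.0697). With the mouse as a block, 3 genes passed the interaction test: *Ifi202b*, *Gm3411* and *Gm6356*. *Ifi202b* rose more on the lesioned side, where its means were 0.0409 and 39.3 CPM, while *Gm3411* and *Gm6356* rose more on the CL side.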

How the data were processed

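RNA of MACS-isolated CD11b+ cells was sequenced by the study from Smart Seq v4 libraries on a NovaSeq, aligned with STAR to mm10 and analysed with Partek Flow 8.0, per the labels and the study's methods; the counting step is not given in the sources used here. The table deposited by the authors holds CPM for 33939 genes, each library summing to 1000000. Between 78.5% and 82.8% of values under 100 reads were whole multiples (within 0.03) of 1 step per CL library, which gives the inferred depth, but the rest were fractional, so no count test was run. The authors' own comparison tables, with p-values, FDR, ratios, fold changes and least-squares means, were not used.

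From the deposited CPM, libraries were scaled by unweighted trimmed means (30% of ratios and 5% of levels trimmed; factors 0.893 to 1.12), and genes with at least 0.353 CPM (10 reads at median depth) in 3 libraries and 15 reads in total were kept. Log2(CPM + 1) values were fitted in limma 3.58.1 (R 4.3.3) with trend and empirical Bayes moderation, with the Benjamini-Hochberg adjustment taken over the whole table of tested genes. Fold changes are on that scale and understate changes of low genes. Sums of copies were compared by two-sided exact permutation tests in Python 3.11.15 (numpy 2.4.6, pandas 2.3.3), copies were found with BLAST 2.17.0 among GENCODE M21 transcripts, and steps were tested on simulated data. In the CL comparison, a limma p-value sets the genotype difference against the spread between mice of each genotype, moderated across genes. The interaction and joint fits without the block took the hemispheres of a mouse as independent. The mouse served as a block in an alternative that joins the hemispheres, since the deviations of the 6 same-mouse pairs correlated at 0.182 to 0.608, against a median of -0.215 over 19 other pairs of the same genotype, with a consensus of 0.438.

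The comparison and the gene lists (pathways and cell type markers) were chosen with earlier results of these data known, so a list is described by its counts and median and not tested. Named genes were up to 12 called genes of largest change in each direction (mean of at least 3 on the log2 scale), called and leading list members, the 5 called genes of highest CPM in each direction, the genes the study names for this comparison, called genes in runs of 3 within 1 Mb, near-identical copies, genes listed at 0 in 1 genotype, and the 5 smallest interaction p-values. Of 138 such genes, 11 copies are given by count only, a choice made after their values were seen, and 16 called genes outside the rule are described among the closing observations. Some items are not reported here. Symbols shared by several genes numbered 56, and are used by gene ID. Alternatives were other pseudocounts, scalings, filters, variance models and thresholds, all 14 libraries in 1 fit, and each library left out.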

Additional observations from a re-analysis of the deposited data

Results flagged for a closer look

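In 8 of 164 groups of 4 Ctrl CL libraries examined, or 4.88%, 1 library lay far from the other 3 by Dixon's criterion. For normally distributed values, chance alone flags about 1 group in 20. Values that rounded to 0 reads were taken as 0. A gene above 0 in 1 library alone, such as *Gm3696* or *Gm3755*, was therefore flagged whatever its level. Ctrl 3551 was the highest library for *Hist1h2al* (0.385 CPM, the others 0 to 0.0257), *Gm3696* (0.170 CPM, the others at 0 or below 1 read), *Syt6* (8.91 CPM, the others 3.18 to 3.77) and *Fgf1* (3.98 CPM, the others 3.06 to 3.17). The same library had the highest sum of neuron markers (18.5 CPM, the others 3.81 to 6.29) and of oligodendrocyte progenitor markers (11.9 CPM, the others 8.47 to 8.97). Ctrl 3545 had the highest *Gm3755* (0.108 CPM, the others at 0 or below 1 read), and Ctrl 3546 the lowest *Rpl29* (31.4 CPM, the others 58.0 to 63.3).

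For 3 genes the genotype difference differed between hemispheres by a test of the difference itself, with the mouse as a block (limma, Benjamini-Hochberg over 18476 genes). The interaction, CL minus IL, was -1.95 on the log2 scale for *Ifi202b* (SE 0.22, adjusted p = 0.00673), 2.0 for *Gm3411* (SE 0.27, adjusted p = 0.0129) and 1.81 for *Gm6356* (SE 0.22, adjusted p = 0.00834). Without the block the adjusted p of each was 0.0736. *Ifi202b* was at 0 and 9.67 CPM on average on the CL side and at 0.0409 and 39.3 CPM on the IL side in Ctrl and cKO. *Gm3411* was at 0.0446 and 2.25 CPM on the IL side, and *Gm6356* was listed at 0 in all Ctrl IL libraries and had a mean of 3.17 CPM in cKO IL. Both belong to the chromosome 14 family of close copies, so their single levels are uncertain.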

How the results depend on the processing

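The count of 145 called genes stayed within 1.5 times its value under 14 of 21 alternatives. It was 86 with at least 10 reads required in every library, where 102 of the 145 could be tested, 265 with all 14 libraries in 1 fit and 290 with the mouse as replicate block added. It was 79 without Ctrl 3541 and Ctrl 3545, an alternative chosen after seeing the data, and 70 to 168 with 1 library left out. The share of called genes that rose, 53.1%, was 61.5% with upper-quartile scaling, 64.3% with no filter and 43.0% with 10 reads in every library. The genotype by hemisphere interaction gave 0 genes, 3 with the replicate block, and 0 to 1 with 1 library left out (*Ifi202b* without cKO CL 791, *Gm6356* without cKO IL 791).

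No log2 change of the 142 single genes reversed sign in the 19 alternatives that refit it. Of 1511 values for the 81 called genes, 1208 stayed called and 303 did not. Of 1144 values for the 61 genes not called, 51 became called. For 34 of the 81, the call held in every alternative in which the gene could be tested. The same was so for 44 of the 145. Some of these genes could not be tested in every alternative. Of 205 values for the 11 copies given by count, 18 from 6 copies had the other sign and 1 was called. With 1 library left out, the log2 ratio of the summed level changed sign for *Tpm3* and *Tpm3-rs7* (-0.02, then -0.05 to 0.01) and for the chromosome 14 family (0.14, then -0.07 to 0.48). The sums of the *Rpl29* family and of *Capza1*, *Ldhb*, *mt-Nd3*, *Rpl34*, *Eif3j1* and *Morf4l1* with their copies kept their direction; with so few libraries, none of these sums could reach a p of 0.05. CPM near 1 read, 0.0240 to 0.0622 CPM per library, limits what can be said of genes at or near 0.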

Other observations

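Called genes outside the rule for named genes, 16 of them chosen after their values were seen for their known function, included regulators of innate signalling. *Wdfy1*, an endosomal adaptor of Toll-like receptor signalling, was at 18.7, 16, 22.4 and 22.2 CPM in Ctrl and at 111, 93.7 and 106 CPM in cKO (log2 change 2.33, SE 0.16, limma adjusted p = 2.95e-05), and its call held whichever library was left out. *Smad7*, the feedback inhibitor of TGF-beta signalling, was at 47.4, 50.4, 113 and 80.9 CPM against 171, 176 and 191 CPM (1.37, SE 0.22, adjusted p = 0.015). *Nod2*, a cytosolic sensor of bacterial muramyl dipeptide, had means of 5.36 and 16.7 CPM (adjusted p = 0.0489). The *Smad7* and *Nod2* calls were each lost without Ctrl 3545 or any cKO library, and that on *Nod2* also without Ctrl 3551 (adjusted p 0.0533 to 0.201). *Itgad*, an integrin alpha chain, had means of 0.185 and 2.37 CPM (1.49, adjusted p = 0.00297), and the calcium channel gene *Cacna1a* of 5.08 and 25 CPM (2.14, adjusted p = 0.0107; lost without cKO 788 or cKO 791). *Bcat1*, a branched-chain aminotransferase, rose from 1.60 to 6.47 CPM (adjusted p = 0.00713) and *Bckdhb*, a subunit of the branched-chain keto acid dehydrogenase, from 5.48 to 12.6 CPM (adjusted p = 0.0373), as did *Sulf2*, a heparan sulfate sulfatase, from 35.2 to 84.2 CPM (adjusted p = 0.0461).

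Other called genes fell. *Hgsnat*, a lysosomal acetyltransferase of heparan sulfate breakdown, fell from 89.3 to 47 CPM (limma adjusted p = 0.0284), *Rraga*, a Rag GTPase that recruits mTORC1 to lysosomes, from 52.5 to 27 CPM (adjusted p = 0.0461) and *Rab5b*, a GTPase of early endosomes, from 37.4 to 17.2 CPM (adjusted p = 0.0473). *Pde4b*, a cAMP phosphodiesterase of leukocytes, fell from 70.5 to 32.6 CPM (adjusted p = 0.0412), *Mrc2*, an endocytic collagen receptor, from 35.1 to 8.71 CPM (adjusted p = 0.0448) and *Ptgds*, a prostaglandin D synthase abundant in oligodendrocytes and meninges, from 23.9 to 10.5 CPM (adjusted p = 0.0461). Each of these 6 calls was lost without at least 5 of the single libraries, Ctrl 3545 and cKO 788 among them, as were those on *Bckdhb* and *Sulf2*, and all 8 were lost without Ctrl 3541 and Ctrl 3545 together (0.0794 to 0.258). *Fgf1*, a growth factor, fell from 3.33 to 0.482 CPM (-1.59, adjusted p = 0.00542) and *Zdhhc14*, a palmitoyltransferase, from 37.4 to 9.11 CPM (-1.96, adjusted p = 0.00295), and these 2 calls held whichever library was left out. Without Ctrl 3541 and Ctrl 3545 together, the adjusted p was 0.0611 for *Smad7*, 0.128 for *Nod2*, 0.0635 for *Itgad*, 0.0653 for *Bcat1*, 0.0782 for *Fgf1* and 0.0392 for *Zdhhc14*.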
